A study of Mus musculus with 2 samples.

Results

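Ly6c2 monocytes without Cxcl9 were the cells examined here, in single-cell RNA sequencing of leukocytes from MC38 tumours, a transplanted mouse colon carcinoma line. A cell was counted when it held at least 500 UMIs (unique molecular identifiers, 1 per captured transcript) with at most 10% of them mitochondrial, at least 2 UMIs of Ly6c2, 1 of Plac8 and 2 of Lyz2, and 0 of Cxcl9. It also held at most 2 UMIs of C1qa, C1qb and C1qc together, at most 2 of Arg1, at most 2 of the cell cycle genes Mki67, Top2a, Birc5 and Pclaf together, and 0 of Ace, Adgre4, Cd3d, Cd3e and Cd3g. This rule found 2452 cells among 67031 filtered cells, 1533 of 34423 in the BiDT library and 919 of 32608 in the Ctrl library.

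Live cells carrying CD45, the leukocyte surface marker, were sorted from tumours 19 days after inoculation, and each library pools the cells of 5 biological replicates. The BiDT group was treated with an agent of that name, which the labels do not define, while the title of the series speaks of an interferon fused to an antibody against TIM3. The Ctrl group bore the same tumours, and both libraries carry the batch label 1. The dose, the schedule, what Ctrl mice received, and the strain, sex and age of the mice are not given in the sources used here.

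Classical monocytes leave the bone marrow through the chemokine receptor Ccr2, enter inflamed tissue and tumours, and there develop into macrophages or cells that resemble dendritic cells. They carry Ly6C on the surface and circulate through the blood with little MHC class II. Type I interferon acts on them through Ifnar1 and Ifnar2 and factors such as Stat2 and Irf9, which bind DNA at repeats of the motif GAAA and switch on antiviral genes such as the Ifit family. Interferon gamma acts through its own receptor and induces Cxcl9, the chemokine whose absence was part of the rule.

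Each group is 1 library, so the differences between the groups were not tested, and each interval given is an exact 95% interval that covers counting error only. The BiDT library held 34996 barcodes with 130313537 UMIs and the Ctrl library 34310 barcodes with 211047063 UMIs. The monocytes had a median of 3321 UMIs in BiDT (lowest 1126, highest 21728) and 4055 in Ctrl (lowest 1387, highest 15806). Their median mitochondrial share was 0.878% in BiDT and 1.36% in Ctrl, and their median share of the nuclear RNA Malat1 was 0.362% in BiDT and 0.199% in Ctrl. The Ctrl cells were thus deeper, with a higher mitochondrial and a lower Malat1 share. The libraries shared 713 barcodes, which marked 29 of the BiDT and 18 of the Ctrl monocytes. The part of depth and RNA quality in the differences below was not tested.

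The label was checked against markers that the rule did not use. Hp, which encodes the haemoglobin-binding protein haptoglobin, reached 291 CPM (the UMIs of a gene in all these cells summed and scaled to a total of 1000000) in BiDT and 284 CPM in Ctrl. After every cell had been thinned to 1000 UMIs, Hp was detected in 20.9% of the BiDT and 23.1% of the Ctrl monocytes, against 1.00% of BiDT and 0.749% of Ctrl C1q-high macrophages and 0.408% of BiDT and 0.212% of Ctrl T cells. Unthinned, the monocyte shares for Hp were 43.9% in BiDT and 46.0% in Ctrl. Neutrophils, which also make haptoglobin, had thinned shares of 16.7% in BiDT and 17.0% in Ctrl, so Hp set the cells apart from macrophages and T cells but much less from neutrophils. Vcan, which encodes the matrix proteoglycan versican, reached 135 CPM in BiDT and 208 CPM in Ctrl, and was detected after thinning in 10.2% of the BiDT and 14.9% of the Ctrl monocytes, against 0.703% of BiDT and 0.934% of Ctrl T cells and 1.82% of BiDT and 2.40% of Ctrl neutrophils. Cxcl9-positive C1q-low monocytes had thinned Vcan shares of 10.4% in BiDT and 7.36% in Ctrl and thinned Hp shares of 7.77% in BiDT and 11.5% in Ctrl. Vcan thus set the cells apart from T cells and neutrophils, but in BiDT not from the monocytes with Cxcl9. A list of 25 classical monocyte genes took a median of 1.73% of a cell's UMIs in BiDT and 2.43% in Ctrl. In non-classical monocytes it took 1.78% in BiDT and 1.89% in Ctrl. As a whole that list thus did not set the cells apart from non-classical monocytes in BiDT. Ccr2 reached 519 CPM in BiDT and 810 CPM in Ctrl, but its thinned detection in the monocytes, 32.7% in BiDT and 48.3% in Ctrl, stood beside 37.4% in BiDT and 37.6% in Ctrl NK cells, so Ccr2 did not set monocytes apart from NK cells here.

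The rule nevertheless took in cells that carry other markers, with those of NK cells and neutrophils more frequent in BiDT and some others more frequent in Ctrl. At least 1 UMI of Csf1r or Cd14, receptors of monocytes and macrophages, was found in 82.3% of the cells in BiDT (80.3 to 84.2%) and 95.9% in Ctrl (94.4 to 97.1%). At least 3 UMIs of 8 NK cell markers were found in 281 BiDT cells (18.3%, 16.4 to 20.4%) and 61 Ctrl cells (6.64%, 5.11 to 8.45%). At least 10 UMIs of the neutrophil genes S100a8 and S100a9 together were found in 61 BiDT cells (3.98%) and 9 Ctrl cells (0.979%), and these few cells held 93.8% of all S100a8 and S100a9 UMIs in BiDT and 66.2% in Ctrl. Cells with NK cell or neutrophil markers were thus a minority in both libraries and a larger one in BiDT. By Ncr1 or Nkg7 alone the intervals of the libraries overlapped. Ncr1, a receptor of NK cells, had UMIs in 2.54% of BiDT (1.82 to 3.46%) and 1.52% of Ctrl cells (0.835 to 2.54%). At least 3 UMIs of Nkg7 were found in 3.72% of BiDT (2.83 to 4.79%) and 2.72% of Ctrl cells (1.77 to 3.99%). Over the whole lists, the 8 NK cell markers summed to 928 CPM in BiDT and 583 CPM in Ctrl, with none at 0, and the 7 neutrophil markers to 1380 CPM in BiDT and 262 CPM in Ctrl, with none at 0. In both libraries 6 of the 8 and 5 of the 7 lay below 10% of their CPM in another cell group. They were thus within the reach of free RNA, and the source of their UMIs was not tested. Jchain, the joining chain of antibodies that plasma cells make in bulk, had UMIs in 47 BiDT and 6 Ctrl cells, and Siglech, a receptor of plasmacytoid dendritic cells, in 2 BiDT and 10 Ctrl cells. Sparc, a matrix protein of stromal cells, had UMIs in 2.94% of BiDT and 5.98% of Ctrl cells. Their part in the results was not tested, but each count below was repeated without the cells that carry at least 3 NK marker UMIs, at least 10 S100a8 and S100a9 UMIs or any Siglech UMI, an alternative added after the data had been seen.

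The genes of the rule are a description only. Ly6c2 itself reached 4353 CPM in BiDT and 2137 CPM in Ctrl, with a median of 9 UMIs per cell in BiDT and 6 in Ctrl, Plac8 reached 2813 CPM in BiDT and 2711 CPM in Ctrl, and Lyz2, the lysozyme of myeloid cells, 4277 CPM in BiDT and 10637 CPM in Ctrl. Ly6c2 was thus higher and Lyz2 lower in BiDT, while Plac8 was nearly alike. Cells that failed the rule at Ly6c2 alone numbered 604 in BiDT and 843 in Ctrl, and cells that failed it at Lyz2 alone 1100 in BiDT and 155 in Ctrl. Just inside the Ly6c2 threshold, at 2 UMIs, lay 200 BiDT cells with 117 CPM of Hp, 1850 CPM of Isg15 and 272 CPM of Ifit3, and 158 Ctrl cells with 157 CPM of Hp, 371 CPM of Isg15 and 18.3 CPM of Ifit3. Just outside it, at 1 UMI, lay 269 BiDT cells with 84.1 CPM of Hp, 1400 CPM of Isg15 and 220 CPM of Ifit3, and 214 Ctrl cells with 117 CPM of Hp, 385 CPM of Isg15 and 43.8 CPM of Ifit3. On both sides of the line Isg15 and Ifit3 stood higher in BiDT.

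Among filtered cells the monocytes made up 4.45% in BiDT (4.24 to 4.68%) and 2.82% in Ctrl (2.64 to 3.0%), a log2 ratio of 0.66. This order rested on Ly6c2: with at least 1 UMI of Ccr2 asked for in its place, the shares were 3.46% in BiDT (3.27 to 3.66%) and 3.80% in Ctrl (3.60 to 4.02%), and after thinning 1.92% in BiDT and 3.03% in Ctrl. The size of the difference rested on the other clauses too. With at least 5 UMIs of Lyz2, added after the data had been seen, the shares were 3.02% in BiDT and 2.50% in Ctrl, and without the cells that carry NK, neutrophil or plasmacytoid dendritic cell markers they were 3.49% in BiDT and 2.59% in Ctrl. With the Cxcl9 clause dropped they were 5.35% in BiDT and 4.36% in Ctrl. Of the cells that passed every other clause, 309 of 1842 in BiDT (16.8%, 15.1 to 18.6%) and 503 of 1422 in Ctrl (35.4%, 32.9 to 37.9%) held Cxcl9, and after thinning 85 of 1227 in BiDT (6.93%) and 189 of 870 in Ctrl (21.7%). Either way the smaller share of Cxcl9-positive cells was in BiDT.

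**Figure D1:**
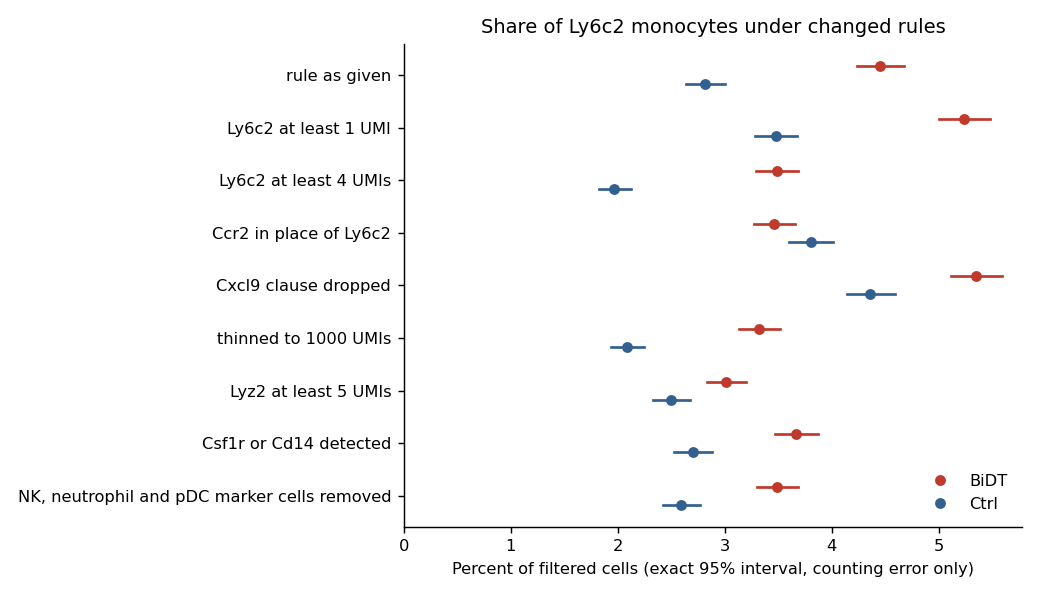
Percent of filtered cells counted as Ly6c2 monocytes under the rule as given and 8 changed rules, BiDT above Ctrl in each row, with exact 95% intervals. BiDT lies above Ctrl at 4.45% in BiDT and 2.82% in Ctrl under the rule as given, and below it at 3.46% in BiDT and 3.80% in Ctrl where Ccr2 replaces Ly6c2.

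Interferon-stimulated genes made up most of what was highest in BiDT. Of the 9148 genes with at least 50 UMIs over both libraries, the genes of the rule left out, 1192 were at least 1.5-fold higher in BiDT (13.0%) and 707 at least 1.5-fold lower (7.73%), and the median log2 ratio over all of them was 0.01. Of the 12 highest genes that the naming rule allowed, 9 belonged to the type I interferon list. They are led by the Ifit genes, whose proteins bind foreign RNA. Ifit3 reached 777 CPM in BiDT and 37.5 CPM in Ctrl (log2 ratio 4.37, 4.14 to 4.61), and had UMIs in 1006 of 1533 BiDT and 83 of 919 Ctrl cells. Ifit3b followed with 204 CPM in BiDT and 4.94 CPM in Ctrl (5.37), Ifit1 with 485 CPM in BiDT and 27.2 CPM in Ctrl (4.16), Ifit2 with 1219 CPM in BiDT and 77.3 CPM in Ctrl (3.98), and Ifit1bl1 with 77.4 CPM in BiDT and 5.68 CPM in Ctrl (3.77). Slfn4, a schlafen gene of myeloid cells, reached 3140 CPM in BiDT and 180 CPM in Ctrl (4.12, 4.02 to 4.23), and Rsad2, which encodes the antiviral enzyme viperin, 1994 CPM in BiDT and 160 CPM in Ctrl (3.64, 3.52 to 3.76). Ifi44 (250 CPM in BiDT and 11.1 CPM in Ctrl, 4.49) and Ifi208 (171 CPM in BiDT and 14.3 CPM in Ctrl, 3.57) completed the 9. Ifit3 and Ifit3b are close copies, as are Ly6c2 and Ly6c1 or H2-Q6 and H2-Q7, so counts may be split between them.

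The 3 others among the 12 highest were Retnlg, Fabp3 and Ifi214. Retnlg, a secreted protein of neutrophils, had 102 CPM in BiDT and 2.22 CPM in Ctrl (5.52, 4.59 to 6.66), from 44 BiDT and 6 Ctrl cells. Fabp3, a fatty acid binding protein, had 72.0 CPM in BiDT and 1.73 CPM in Ctrl (5.38, 4.32 to 6.70), from 236 BiDT and 7 Ctrl cells, so it was spread over more cells than Retnlg. Ifi214, of the interferon-inducible 200 family, had 52.0 CPM in BiDT and 4.69 CPM in Ctrl (3.47).

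**Figure D2:**
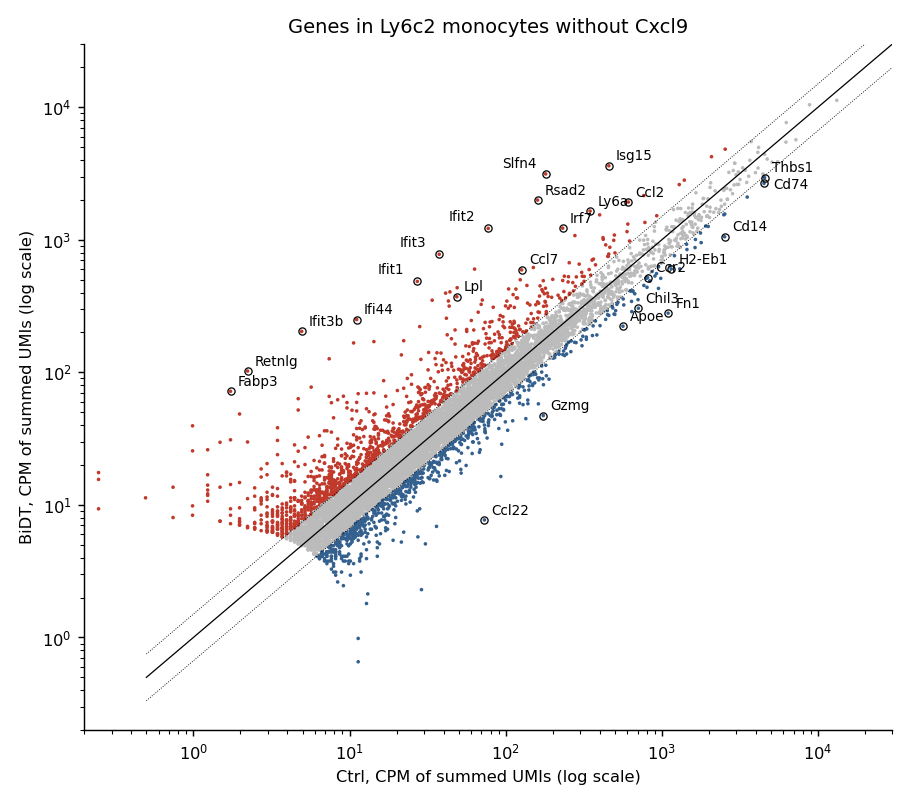
CPM of each measured gene in the monocytes, BiDT on the vertical and Ctrl on the horizontal axis, both on log scales. Each point is a gene with at least 50 UMIs and at least 1 in each library, the solid line marks equal CPM and the dotted lines mark 1.5-fold, with red points at least 1.5-fold higher in BiDT, blue points at least 1.5-fold lower and grey points between. Ifit3 lies far above the lines at 777 CPM in BiDT and 37.5 CPM in Ctrl, and Fn1 below them at 280 CPM in BiDT and 1097 CPM in Ctrl.

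Of the type I interferon list 49 of 52 measured genes were at least 1.5-fold higher in BiDT and 0 lower, with a median log2 ratio of 1.58. Isg15, a ubiquitin-like modifier, reached 3617 CPM in BiDT and 458 CPM in Ctrl (2.98, 2.91 to 3.05), and Ifi27l2a, an interferon-induced membrane protein, 2610 CPM in BiDT and 1293 CPM in Ctrl (1.01, 0.97 to 1.06). The other 3 genes stayed within 1.5-fold. Irf9, part of the factor that transmits the type I signal, had 129 CPM in BiDT and 93.8 CPM in Ctrl (0.46), Ifi207 had 684 CPM in BiDT and 494 CPM in Ctrl (0.47), and Ifitm3, which blocks viral entry, had 1501 CPM in BiDT and 1938 CPM in Ctrl (-0.37). These last 3 were chosen after their values were seen. Without the cells carrying markers of other types, 49 of 52 were higher, with a median of 1.54, and with Ccr2 in place of Ly6c2 51 of 52 were, with a median of 1.62.

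The difference was spread over most of the cells. In a single cell the type I interferon list took a median of 3.31% of all UMIs in BiDT and 0.988% in Ctrl. The lowest 5% of BiDT cells lay under 0.838% and the highest 5% over 6.78%, against 0.290% and 2.57% in Ctrl. More than 1% of UMIs went to the list in 93.3% of BiDT cells (91.9 to 94.5%) and 49.3% of Ctrl cells (46.0 to 52.6%). The distributions overlapped. Across cells of a library, Spearman's rho of the list share with Ly6c2 was 0.48 over 1533 BiDT cells and 0.17 over 919 Ctrl cells. The rule chose the cells by Ly6c2, so no conclusion is drawn from its values. With Ly6a the rho of the list share was 0.45 in BiDT and -0.03 in Ctrl. Isg15 went with Slfn4 (0.60 in BiDT and 0.16 in Ctrl) and with Rsad2 (0.27 in BiDT and 0.24 in Ctrl). These cells share a library and their depth, and the values are descriptions.

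**Figure D3:**
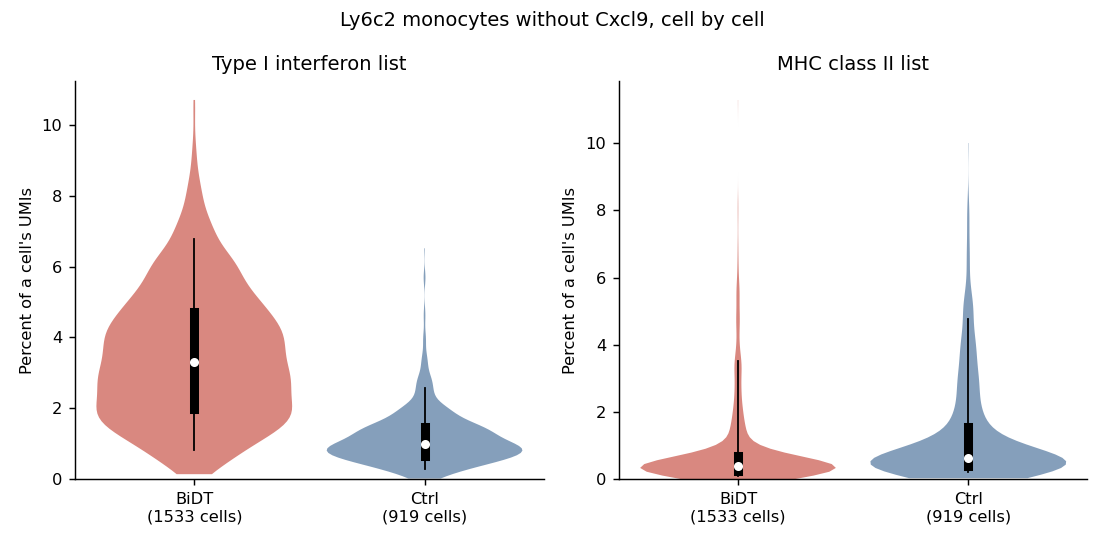
Percent of each cell's UMIs taken by the type I interferon list and the MHC class II list, BiDT left of Ctrl. White dots are medians, thick bars the middle 50% and thin bars the middle 90% of cells. The type I interferon medians are 3.31% in BiDT and 0.988% in Ctrl, and the MHC class II medians 0.409% in BiDT and 0.635% in Ctrl.

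Promoters of 5 genes that were higher in BiDT are shown because they hold GAAANNGAAA, the repeat that interferon-activated factors read. The motif was searched on both strands in the 250 bases before the start of each gene (RefSeq, GRCm38.p6, while the deposited counts are on GRCm39, so these positions belong to the earlier build). It was present in 978 of 32851 promoters (2.98%), in 277 of the 7336 measured genes with an entry (3.78%), in 22 of 42 such genes of the type I interferon list (52.4%) and in 11 of 16 of the interferon gamma list (68.8%). Of the MHC class II list 1 of 7 held it and of the sterol synthesis list 0 of 9. Ifit3 (chr19:34583279-34583528, plus strand) and Ifit1 (chr19:34640639-34640888, plus strand) hold 2 matches each, Isg15 (chr4:156200819-156201068, minus strand) 3 that overlap, Rsad2 (chr12:26456453-26456702, minus strand) 1 and Cxcl10 (chr5:92348890-92349139, minus strand) 1. Sequences run 5′ to 3′ toward the gene, and capitals mark the matches, in reverse complement where they lie on the other strand.
Ifit3: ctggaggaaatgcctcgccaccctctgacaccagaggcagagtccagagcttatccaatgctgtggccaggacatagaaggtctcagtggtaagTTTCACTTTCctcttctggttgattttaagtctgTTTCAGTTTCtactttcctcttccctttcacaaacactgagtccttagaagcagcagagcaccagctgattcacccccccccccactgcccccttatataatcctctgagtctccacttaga
Ifit1: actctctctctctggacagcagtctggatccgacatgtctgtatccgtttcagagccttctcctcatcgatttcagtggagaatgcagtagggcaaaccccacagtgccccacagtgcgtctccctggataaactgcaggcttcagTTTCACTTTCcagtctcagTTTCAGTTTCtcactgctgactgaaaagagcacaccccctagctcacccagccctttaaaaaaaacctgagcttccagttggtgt
Isg15: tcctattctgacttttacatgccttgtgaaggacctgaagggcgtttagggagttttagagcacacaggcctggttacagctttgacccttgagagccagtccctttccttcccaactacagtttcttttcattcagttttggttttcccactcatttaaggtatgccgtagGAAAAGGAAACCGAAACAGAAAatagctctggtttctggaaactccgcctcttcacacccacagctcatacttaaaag
Rsad2: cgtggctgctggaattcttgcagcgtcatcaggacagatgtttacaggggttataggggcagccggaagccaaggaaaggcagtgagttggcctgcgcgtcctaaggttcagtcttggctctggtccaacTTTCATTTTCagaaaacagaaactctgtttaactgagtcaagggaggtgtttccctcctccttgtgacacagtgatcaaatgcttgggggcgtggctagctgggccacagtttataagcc
Cxcl10: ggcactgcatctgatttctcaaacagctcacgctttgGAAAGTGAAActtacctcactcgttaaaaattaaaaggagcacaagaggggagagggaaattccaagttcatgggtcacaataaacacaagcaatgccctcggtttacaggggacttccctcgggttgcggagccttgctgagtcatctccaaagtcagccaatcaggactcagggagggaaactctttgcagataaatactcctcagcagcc
A match is a run of letters and not a shown binding site. Slfn4, Ifit2, Ifi44 and Irf7 held no match in this window.

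Genes of the interferon gamma list had smaller ratios, and 19 of 24 were at least 1.5-fold higher in BiDT and 1 lower, with a median log2 ratio of 1.01. The shares over all genes measured were 13.0% higher and 7.73% lower. Iigp1, a GTPase that attacks the vacuoles of intracellular parasites, reached 350 CPM in BiDT and 33.8 CPM in Ctrl (3.37, 3.12 to 3.63), Gbp6, a guanylate-binding protein, 59.3 CPM in BiDT and 11.1 CPM in Ctrl (2.42), and Cxcl10, a chemokine that draws T cells and is also induced by type I interferon, 2156 CPM in BiDT and 767 CPM in Ctrl (1.49). Irf1, a central factor of this response, had 539 CPM in BiDT and 385 CPM in Ctrl (0.49), and Gbp2 had 471 CPM in BiDT and 414 CPM in Ctrl (0.19), both within 1.5-fold. Since the rule removed the Cxcl9-positive cells, with the Cxcl9 clause dropped the median was 0.62.

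Of 11 measured receptors and signalling genes of the interferons, 0 were at least 1.5-fold higher in BiDT and 3 lower, with a median of -0.10. Over all genes measured 13.0% were higher and 7.73% lower, so for so few genes a count of 0 higher lies near that share. Ifnar1, a chain of the type I receptor, had 66.2 CPM in BiDT and 102 CPM in Ctrl (-0.62, -0.82 to -0.42). With the rule applied to counts thinned to 1000 UMIs, the log2 ratio of Ifnar1 was -0.12. Ifngr1 of the interferon gamma receptor had 210 CPM in BiDT and 318 CPM in Ctrl (-0.60, -0.71 to -0.49). Socs3, an inhibitor of cytokine signalling, had 343 CPM in BiDT and 640 CPM in Ctrl (-0.90, -0.98 to -0.82).

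Antigen presentation genes of MHC class I and class II differed in opposite directions. Beside the counts below stand 13.0% higher and 7.73% lower over all genes measured. Of the MHC class I list 10 of 24 were at least 1.5-fold higher in BiDT and 0 lower, with a median of 0.45, led by H2-Q6 (246 CPM in BiDT and 60.3 CPM in Ctrl, 2.03), a non-classical molecule, and with H2-K1, a classical heavy chain, at 4235 CPM in BiDT and 2081 CPM in Ctrl (1.03, 0.99 to 1.06). Of the MHC class II list 0 of 10 were higher and 6 lower, with a median of -0.66. H2-Eb1, a class II beta chain, had 603 CPM in BiDT and 1149 CPM in Ctrl (-0.93, -0.99 to -0.87), its invariant chain Cd74 2664 CPM in BiDT and 4511 CPM in Ctrl (-0.76), and Ciita, the transactivator of class II genes, 26.4 CPM in BiDT and 48.4 CPM in Ctrl (-0.88). With the rule applied anew to counts thinned to 1000 UMIs, 8 of the class II genes were measured and their median was -1.46. That setting took in partly other cells. It held 1142 BiDT cells, 702 of them in the main values, and 681 Ctrl cells, 349 of them in the main values. Markers of dendritic cells, which carry much class II, were lower beside them. Of 6 measured markers of conventional dendritic cells 0 were higher and 4 lower, with a median of -1.49, and the whole list summed to 128 CPM in BiDT and 242 CPM in Ctrl with none at 0. Of 4 measured markers of plasmacytoid dendritic cells 0 were higher and 3 lower, with a median of -3.24, and that list summed to 97.0 CPM in BiDT and 168 CPM in Ctrl with none at 0. Siglech, 1 of these markers, had UMIs in only 2 BiDT and 10 Ctrl cells. Without the cells carrying markers of other types, where Siglech but no conventional dendritic cell marker was used, the class II median was -0.66 and the conventional dendritic cell median -1.35. Only 1 plasmacytoid dendritic cell marker was measured there, at 0.01, in cells chosen to lack Siglech. The part of dendritic cells in the class II difference was not tested.

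Class II UMIs were spread unevenly over the cells but were not confined to few. The list took a median of 0.409% of a cell's UMIs in BiDT and 0.635% in Ctrl. The highest 5% of cells lay over 3.51% in BiDT and 4.77% in Ctrl. At least 1 UMI of Cd74 was found in 74.5% of the BiDT cells. At least 2% of UMIs were from the class II list in 163 BiDT cells (10.6%, 9.13 to 12.3%) and 188 Ctrl cells (20.5%, 17.9 to 23.2%), and 78 BiDT and 80 Ctrl cells lay within 0.5 percentage points of that line. The subset had 15456 CPM of Cd74 in BiDT and 14960 CPM in Ctrl, while the remaining cells had 943 CPM in BiDT and 1670 CPM in Ctrl. Cd74 belongs to the list that picked the subset, so its difference between subset and rest was fixed by that choice. Cd209a, a lectin of monocyte-derived dendritic cells and of conventional dendritic cells, stood at 170 CPM in BiDT and 181 CPM in Ctrl in the subset, and at 6.69 CPM in BiDT and 38.0 CPM in Ctrl in the rest. Isg15 stood at 1564 CPM in BiDT and 642 CPM in Ctrl in the subset, and at 3894 CPM in BiDT and 407 CPM in Ctrl in the rest.

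Of 25 measured genes of classical monocytes, 11 were at least 1.5-fold lower in BiDT, 2 higher and 12 within 1.5-fold, with a median of -0.45. Over all genes measured 7.73% were lower and 13.0% higher. Fn1, which encodes the matrix protein fibronectin, had 280 CPM in BiDT and 1097 CPM in Ctrl (-1.97, -2.05 to -1.89), the lowest ratio of all genes the naming rule allowed. Cd14, the co-receptor for bacterial lipopolysaccharide, had 1053 CPM in BiDT and 2524 CPM in Ctrl (-1.26, -1.31 to -1.22), Chil3, a chitinase-like protein, 304 CPM in BiDT and 708 CPM in Ctrl (-1.22), and F13a1, the coagulation factor XIII A chain, 273 CPM in BiDT and 500 CPM in Ctrl (-0.87). The chosen markers did not differ by a like amount, since Hp differed by 0.04 (-0.07 to 0.14), Vcan by -0.62 and Ccr2 by -0.64. Among the higher genes was Ms4a4c (0.66), of the MS4A membrane family, chosen after its values were seen. With Ccr2 in place of Ly6c2, 2 genes were higher and 4 lower, with a median of -0.24. Of all 9245 genes measured in that setting 971 were higher and 677 lower, with a median of -0.01. The lower count of the list thus lay closer to the share over all genes than under the rule as given.

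Of 20 measured transcription factors of monocytes 2 were higher and 2 lower. These counts lie near the shares over all genes measured, 13.0% higher and 7.73% lower. Klf2, a factor of quiescence, had 452 CPM in BiDT and 137 CPM in Ctrl (1.73, 1.59 to 1.86), and Maf, a macrophage factor, 163 CPM in BiDT and 61.3 CPM in Ctrl (1.41). Rel, of the NF-kappa B family, had 152 CPM in BiDT and 241 CPM in Ctrl (-0.67), and Cebpa, a factor of early myeloid development, 42.6 CPM in BiDT and 71.6 CPM in Ctrl (-0.75).

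Chemokine genes split, with 9 of 17 at least 1.5-fold higher in BiDT and 5 lower, and a median of 0.91. Over all genes measured 13.0% were higher and 7.73% lower. The ligands of Ccr2, which draw further monocytes, were among the higher: Ccl7 with 593 CPM in BiDT and 126 CPM in Ctrl (2.23), Ccl12 with 125 CPM in BiDT and 28.6 CPM in Ctrl (2.13), and Ccl2 with 1926 CPM in BiDT and 610 CPM in Ctrl (1.66, 1.60 to 1.72). Thinned to 1000 UMIs, Ccl2 was detected in 57.9% of BiDT and 30.1% of Ctrl monocytes, against 14.5% of BiDT and 5.90% of Ctrl T cells, and unthinned in 78.0% of BiDT and 52.8% of Ctrl monocytes. Thinned shares for Ccl7 were 22.9% in BiDT and 6.96% in Ctrl monocytes, against 13.4% in BiDT and 3.10% in Ctrl T cells and 18.7% in BiDT and 7.84% in Ctrl neutrophils. Shares in T cells were thus also higher in BiDT. Ccl7 did not stand above the neutrophil share in Ctrl and stood little above it in BiDT. Its detection in Ctrl monocytes cannot be told from background, and its source in either library was not tested. C1q-high macrophages of BiDT had higher thinned shares than the BiDT monocytes, 62.7% for Ccl2 and 62.15% for Ccl7. Ccl22, which draws regulatory T cells, had 7.70 CPM in BiDT and 73.1 CPM in Ctrl (-3.25), but its UMIs lay in 23 BiDT and 39 Ctrl cells. Without the cells carrying markers of other types, 8 genes were higher and 6 lower, and the median of the list was 0.30.

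**Figure D4:**
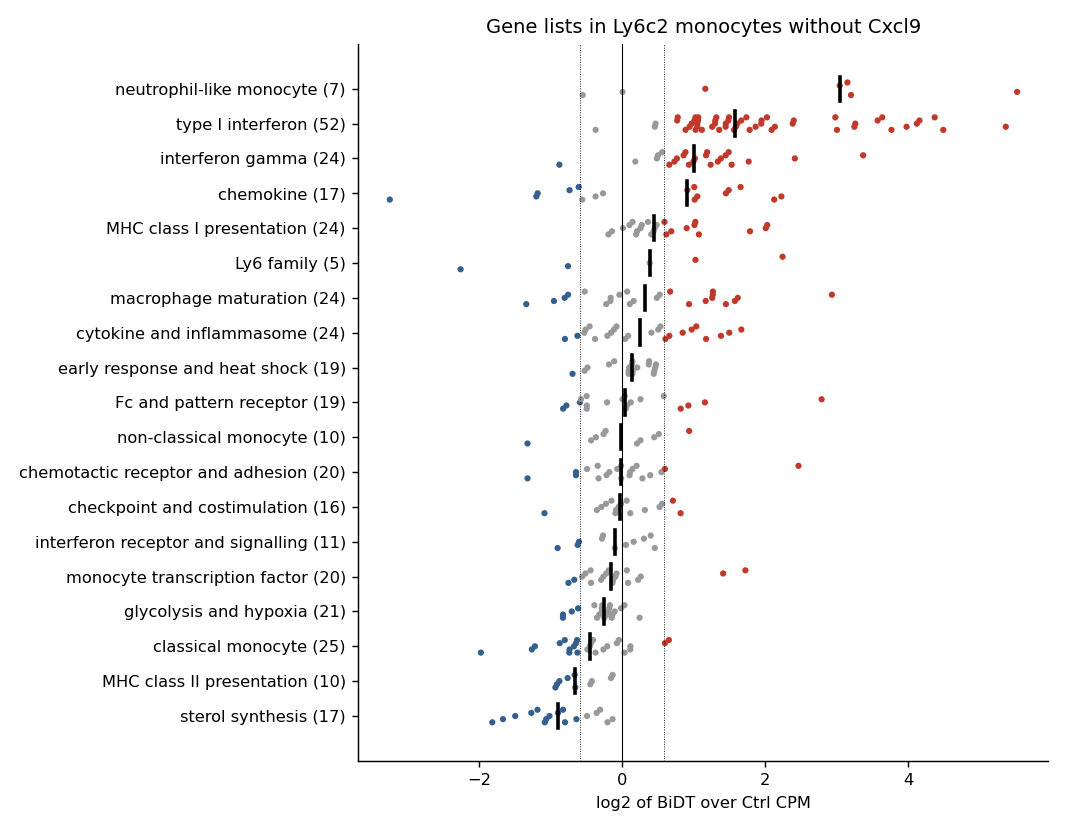
log2 of BiDT over Ctrl CPM for each measured gene of 19 lists, with the number measured in brackets and black bars at the medians. Dotted lines mark 1.5-fold, with red points past it on the side of BiDT and blue points on the side of Ctrl. The type I interferon list lies to the right with a median of 1.58, and the sterol synthesis list to the left with -0.89.

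Cytokine genes were higher in 9 of 24 and lower in 2, with a median of 0.25. Over all genes measured 13.0% were higher and 7.73% lower, so the lower count lies near that share. Il15, which sustains NK and CD8 T cells, had 77.5 CPM in BiDT and 27.4 CPM in Ctrl (1.5, 1.20 to 1.81), Tnfsf10, which encodes the death ligand TRAIL, 33.8 CPM in BiDT and 10.6 CPM in Ctrl (1.67), and Il27 37.4 CPM in BiDT and 14.3 CPM in Ctrl (1.38). The most abundant cytokine, Il1b, had 3879 CPM in BiDT and 5524 CPM in Ctrl (-0.51, -0.54 to -0.48), within 1.5-fold.

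Macrophage maturation genes differed in both directions, with 10 of 24 higher and 4 lower, beside 13.0% higher and 7.73% lower over all genes measured. Their median was 0.32, which was 0.16 without the cells carrying markers of other types and 0.13 with at least 5 UMIs of Lyz2. Lpl, lipoprotein lipase, had 372 CPM in BiDT and 48.6 CPM in Ctrl (2.93, 2.72 to 3.15), while Apoe, the lipid carrier apolipoprotein E, had 223 CPM in BiDT and 564 CPM in Ctrl (-1.34, -1.44 to -1.24).

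Sterol synthesis genes were lower in 12 of 17 and higher in 0, with a median of -0.89. Sqle, squalene epoxidase, had 5.41 CPM in BiDT and 19.0 CPM in Ctrl (-1.81, -2.45 to -1.21), and Fdps, farnesyl diphosphate synthase, 19.8 CPM in BiDT and 55.8 CPM in Ctrl (-1.49). With the rule applied anew to counts thinned to 1000 UMIs, only 7 of these low genes were measured, 3 of them lower, with a median of -0.44. Glycolysis genes were lower in 4 of 21 and higher in 0 (median -0.25), with Gapdh at 637 CPM in BiDT and 1128 CPM in Ctrl (-0.83). Over all genes measured 7.73% were lower and 13.0% higher.

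Of the pattern receptors and Fc receptors 4 of 19 were higher and 3 lower, beside 13.0% higher and 7.73% lower over all genes measured. Tlr3, a sensor of double-stranded RNA, had 23.9 CPM in BiDT and 3.46 CPM in Ctrl (2.79), and Clec4e, a receptor of mycobacterial glycolipid, 322 CPM in BiDT and 570.5 CPM in Ctrl (-0.82). In the Ly6 family Ly6a, which encodes Sca-1, had 1646 CPM in BiDT and 347 CPM in Ctrl (2.24, 2.16 to 2.33), and Ly6i 84.9 CPM in BiDT and 143 CPM in Ctrl (-0.75). Cd274, the checkpoint ligand PD-L1, had 333 CPM in BiDT and 226 CPM in Ctrl (0.56, 0.45 to 0.68), within 1.5-fold. The checkpoint list had 2 of 16 higher and 1 lower, near the shares over all genes.

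Several genes of other cell types differed too. Of 7 neutrophil-like monocyte genes 5 were higher, beside 13.0% over all genes measured, with a median of 3.04. The cells carrying neutrophil markers were picked by S100a8 and S100a9, which belong to this list, so values without those cells are not given for it. S100a9 reached 405 CPM in BiDT and 44.0 CPM in Ctrl (3.20) and stood in the few cells named above. Gzmg, a granzyme of killer lymphocytes, had 47.2 CPM in BiDT and 174 CPM in Ctrl (-1.88, -2.09 to -1.68), after Fn1 the lowest ratio among genes the naming rule allowed, but without the cells carrying markers of other types it had 14.8 CPM in BiDT and 6.81 CPM in Ctrl (1.12). Other low genes that the naming rule allowed were Dmkn (-1.72), Tmem176b (-1.59), a membrane protein of myeloid cells, Tnip3 (-1.58), a restraint on NF-kappa B, Cd177 (-1.49), Trf (-1.49), the iron carrier transferrin, Tmem176a (-1.45), Cd209a (-1.40) and Ptger4 (-1.36), a prostaglandin receptor.

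Set beside 3 like groups, the interferon difference was found in each, and it was found in the cells counted as T and NK cells too. In T cells the type I list median was 2.83, with 52 of 52 measured genes higher. In NK cells it was 2.18, with 46 of 47 higher. These cells also held UMIs of myeloid genes. In BiDT, unthinned, Cd14 was detected in 23.6% of T cells and 28.6% of NK cells. Il1b was detected in 57.0% of BiDT T cells and 62.4% of BiDT NK cells. The part of free RNA in the lymphocyte medians was not tested. The type I list median of BiDT over Ctrl was 1.58 in the monocytes without Cxcl9, 1.11 in Cxcl9-positive C1q-low monocytes (309 in BiDT and 503 in Ctrl), 1.52 in non-classical monocytes (262 in BiDT and 538 in Ctrl) and 2.70 in C1q-high macrophages (2893 in BiDT and 5341 in Ctrl). The list took a median of 3.31% of a cell's UMIs in BiDT and 0.988% in Ctrl in the monocytes without Cxcl9, against 2.12% in BiDT and 0.239% in Ctrl in C1q-high macrophages, so the levels of the groups differed in both libraries. Isg15 reached 3617 CPM in BiDT and 458 CPM in Ctrl in the monocytes without Cxcl9, against 2041 CPM in BiDT and 183 CPM in Ctrl in the C1q-high macrophages. The difference between the groups was not tested. The sterol synthesis median was -0.89 in the monocytes without Cxcl9, -0.59 in those with Cxcl9, -0.41 in non-classical monocytes and -1.82 in C1q-high macrophages. The MHC class II medians were -0.66, -0.90, -0.95 and -1.16 in the same 4 groups, all lower in BiDT.

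**Figure D5:**
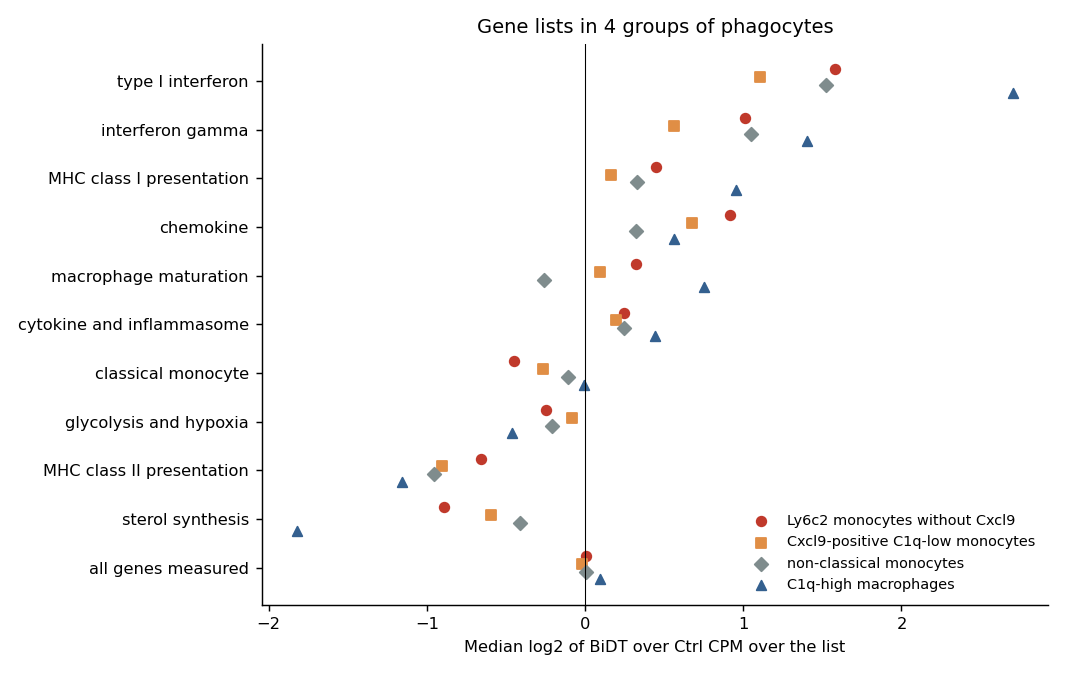
Median log2 of BiDT over Ctrl CPM over each of 10 lists and over all measured genes, for the Ly6c2 monocytes without Cxcl9 and 3 like groups. Type I interferon medians run from 1.11 to 2.70, and the median over all genes lies within 0.1 of 0.

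Against the Cxcl9-positive monocytes of their own library, the cells without Cxcl9 had lower levels of interferon gamma genes, on which the choice by Cxcl9 bears. Of the interferon gamma list 0 of 24 were at least 1.5-fold higher and 11 lower in BiDT (median -0.48), and 0 higher and 18 lower in Ctrl (median -1.05). Over all genes measured 14.6% were higher and 5.34% lower in BiDT, and 10.2% were higher and 4.50% lower in Ctrl. Nos2, the inducible nitric oxide synthase, had 87.5 CPM in the cells without Cxcl9 against 271 CPM in those with it in BiDT (-1.63), and 55.3 against 192 CPM in Ctrl (-1.79). The type I list had a median of 0.23 in BiDT and -0.21 in Ctrl. In a single cell without Cxcl9 that list took a median of 3.31% of UMIs in BiDT and 0.988% in Ctrl. In the cells with Cxcl9 it took 2.35% in BiDT and 1.04% in Ctrl. By this measure the list was higher without Cxcl9 in BiDT and nearly alike in Ctrl, and the difference was not tested. Higher in the cells without Cxcl9 were Pou2f2, a transcription factor, with 149 against 53.0 CPM in BiDT (1.49) and 104 against 36.0 CPM in Ctrl (1.53), and Ifitm6, with 187 against 86.4 CPM in BiDT (1.12) and 312 against 118 CPM in Ctrl (1.40). Jchain, which plasma cells make in bulk, differed more than these 2, with 221 against 7.98 CPM in BiDT (4.79) and 28.2 against 4.50 CPM in Ctrl (2.64). Its UMIs lay in 47 BiDT and 6 Ctrl cells without Cxcl9. The part of such cells in the other differences was not tested. Nos2, Pou2f2, Ifitm6 and Jchain were chosen after their values were seen.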

How the data were processed

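The authors deposited whole-number UMI counts of 32589 genes in each barcode, not normalized. The build was GRCm39 and the software Cell Ranger 7.1.0, per the submitters' processing notes, while the release of the annotation was not given in the sources used here. The barcodes have 3 segments of 9 bases, which is not the form Cell Ranger writes, so the counting step is not certain. Counts of 48 symbols borne by several genes were summed, and 8 of 445 list symbols were absent.

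Barcodes with 500 or more UMIs, of which no more than 10% were mitochondrial, were kept, and UMI counts of the cells that met the rule were summed per library, scaled to CPM and set against each other as the log2 ratio of BiDT to Ctrl, with exact conditional binomial 95% intervals. Shares have exact (Clopper-Pearson) intervals. A gene was measured with at least 50 UMIs over both libraries, and 1.5-fold marks a difference. Scrublet (in scanpy 1.11.5) marked 0 cells by its own thresholds, so no doublets were removed in the main values, and cells scoring 0.15 or more were removed as an alternative. Scripts ran under scipy 1.17.1, numpy 2.4.6, pandas 2.3.3, matplotlib 3.10.9 and Python 3.11.15, with edgeR 4.0.16 for TMM scaling as an alternative, and the ratio step was tested on simulated data. No test between groups was possible with a single library in each.

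Named genes are the 12 highest and 12 lowest ratios among genes with at least 50 CPM in 1 library, an interval that excludes 1-fold, and a CPM not below 10% of that of another cell group in both libraries (the reach of free RNA), with rule, mitochondrial, ribosomal, predicted, sex-linked and receptor genes left out, plus up to 4 of each list by CPM and up to 4 by ratio. Members and lists were chosen with earlier results of these data known. Some genes that the rule names are not reported here.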

Additional observations from a re-analysis of the deposited data

Results flagged for a closer look

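Apoe and Gzmg differed in opposite directions in the monocytes without Cxcl9 and in C1q-high macrophages, 1 library per group standing behind each direction, and the difference was not tested. The log2 ratio of BiDT over Ctrl for Apoe was -1.34 in the monocytes (223 CPM in BiDT and 564 CPM in Ctrl) and 0.96 in C1q-high macrophages (2673 CPM in BiDT and 1374 CPM in Ctrl). For Gzmg it was -1.88 in the monocytes (47.2 CPM in BiDT and 174 CPM in Ctrl) and 2.52 in C1q-high macrophages (62.9 CPM in BiDT and 11.0 CPM in Ctrl), and in the monocytes it was 1.12 without the cells carrying markers of NK cells, neutrophils or plasmacytoid dendritic cells.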

How the results depend on the processing

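No paired analysis was possible because each group is 1 library, and no replicate could be left out. The log2 ratio of the share, 0.66, was -0.14 with Ccr2 in place of Ly6c2, 0.82 with at least 4 UMIs of Ly6c2, 0.30 with the Cxcl9 clause dropped and 0.84 with Malat1 at most 1% of UMIs. Among alternatives chosen after seeing the data it was 0.43 without cells carrying markers of NK cells, neutrophils or plasmacytoid dendritic cells, 0.27 with at least 5 UMIs of Lyz2 and 0.44 with Csf1r or Cd14 detected; the cause was not tested. Genes at least 1.5-fold higher and lower numbered 725 and 462 after thinning to 1000 UMIs and 616 and 341 with at least 200 UMIs per gene, where fewer genes were measured, and 2853 and 2573 with 1 UMI in each library, where more were. The type I interferon median ranged from 1.40, after thinning, to 1.62 over 18 alternatives. The thinned setting applied the rule anew to the thinned counts, so its cells were partly others than those of the main values. Of 19 list medians 6 took the other sign under some alternative. The median of the Ly6 family was 0.39, with the median lower bound of its genes above 0, and was -0.32 with at least 4 UMIs of Ly6c2 and -0.18 with 1 UMI in each library. The other 5 had main medians between -0.10 and 0.04, and ranged from -0.40 to 0.21 for non-classical monocytes, -0.20 to 0.03 for interferon receptors, -0.23 to 0.07 for chemotactic receptors, -0.41 to 0.09 for Fc and pattern receptors and -0.08 to 0.07 for checkpoints. Of 154 single genes 9 took the other sign, 8 of them within 1.5-fold in the values reported. The other was Gzmg, -1.88, which was 1.12 without the cells carrying other markers and 0.72 with at least 5 UMIs of Lyz2; the cause was not tested. TMM and median-of-ratios scaling moved log2 ratios by -0.01 each.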
